A study of Mus musculus with 3 samples.

Results

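The genes described here encode the proteins of the cytosolic ribosome, read in mouse bone marrow-derived dendritic cells after 24 h with PBS, LPS or PTX. They were chosen by symbol alone. A probe set was taken when its platform annotation gave exactly 1 gene symbol and that symbol was Rpl or Rps followed by a digit, Rplp0, Rplp1, Rplp2 or Rpsa. The ribosomal S6 kinases, Rps19bp1, paralogs whose symbols end in l or l1, and pseudogene symbols ending in -ps were left out. This gave 95 of the 45101 probe sets on the array and 43 of the 18193 genes, 22 of them in the large (60S) and 21 in the small (40S) subunit. The RefSeq gene table of assembly GRCm38.p6 holds 80 protein-coding genes under the same symbol rule, so 37 had no probe set of their own here, Rplp1 and Rps27a among them.

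The cells were grown from the marrow of female mice aged 6 weeks under GM-CSF (20 ng/mL), which supports the growth of dendritic cells, and those not attached on day 7 were taken. The control cells received PBS. Of the other cultures, 1 received 1 µg/mL of LPS, the outer-membrane lipid of Gram-negative bacteria that activates Toll-like receptor signalling, and 1 received 100 ng/mL of PTX, an abbreviation that the labels do not spell out. The strain label reads C57BL/6 for PBS and LPS and C57BL/7 for PTX. Each group held 1 array, and the labels do not say whether the cultures shared a mouse or a marrow preparation, so a difference between groups cannot be told apart from one between cultures, and no test across samples was possible.

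A ribosome joins a small subunit, which reads messenger RNA, to a large subunit, which forms the peptide bond. Each subunit is built on ribosomal RNA and needs each of its proteins in about equal number, and the messenger RNAs of these proteins are among the most abundant in growing cells. Most of them begin with a 5′ terminal oligopyrimidine (TOP) tract, a C followed by a run of C and T letters in the gene. That tract lets mTORC1, acting through the RNA-binding protein LARP1 and the 4E-BP repressors, regulate their translation with little change in the messenger RNA level. Dendritic cells shift their metabolism and protein synthesis after Toll-like receptor ligands.

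The tract was looked for in the RefSeq promoter windows (GRCm38.p6, 250 bases before to 50 bases after each annotated start), which 38 of the 43 genes matched by symbol. Of 44 member windows, 8 (18.2%) had a C at the annotated start followed by at least 4 letters that were each C or T, read on the gene's strand, against 2.51% of all 32851 windows. An unbroken run of at least 8 C or T letters within 20 bases before to 30 bases after the start was found in 21 member windows (47.7%) and in 19% of all windows. The window can miss a tract where the annotated start lies away from the used one. Printed here are 10 bases before to 20 bases after the start, 5′ to 3′ on the gene's strand, with the longest C or T run in capitals. The leading 6 were chosen because a long run lies on the start, and the closing 3 (Rpl39, Rpl37 and Rpl41) because their probe sets gave the values that stood out on the LPS array.
Rps6: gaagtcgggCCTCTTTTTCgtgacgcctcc
Rpl35: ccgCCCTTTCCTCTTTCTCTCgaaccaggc
Rps18: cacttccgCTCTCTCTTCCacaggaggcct
Rps10: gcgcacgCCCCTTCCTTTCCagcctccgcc
Rplp2: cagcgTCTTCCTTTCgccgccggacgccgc
Rpl38: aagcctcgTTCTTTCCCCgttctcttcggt
Rpl39: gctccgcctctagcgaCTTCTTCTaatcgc
Rpl37: CCTgggcggaagcttatccacaggaagtgg
Rpl41: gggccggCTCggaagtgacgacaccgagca

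These windows lie at chr4:86857348-86857377 (Rps6, minus strand), chr2:39005112-39005141 (Rpl35, minus), chr17:33955646-33955675 (Rps18, minus), chr17:27635225-27635254 (Rps10, minus), chr7:141447641-141447670 (Rplp2, plus) and chr11:114668570-114668599 (Rpl38, plus). The other three lie at chrX:37085203-37085232 (Rpl39, minus), chr15:5116603-5116632 (Rpl37, plus) and chr10:128549149-128549178 (Rpl41, minus). In Rpl35 the run was 18 letters long and in Rps10 it was 13, whereas in Rpl37 and Rpl41 no run in the printed stretch passed 3 letters. Among other motifs searched over all 300 bases, ACTTCCG on either strand, the core bound by ETS-family factors, was in 12 of 44 member windows (27.3%) and in 6.42% of all windows. Its reverse complement begins with CGG, the last letters of GGGCGG, so 1 stretch can count under both. GGGCGG on either strand, the Sp1 box, was in 24 (54.5%) against 35.7%. AAGATGGC on either strand, the core of the YY1 site, was in 3 (6.82%) against 2.75%, and TATAAA on the gene's strand was in 4 (9.09%) against 8.32%. These are letter matches in a fixed window and not measured binding.

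The LPS array stood apart from the others in ways that touch every LPS value below. Its probe sets had a median intensity of 65.4, against 85.8 (PBS) and 87.0 (PTX), while the highest intensity was 25483 against 15240 and 16401. Of the 18 bacterial hybridization controls, which are added to each sample and owe nothing to the cells, the 6 brightest (mean log2 value of at least 12) read higher on the LPS array than on the PBS array by 0.22 to 0.57 on the log2 scale, with a median of 0.55, while the median over all 18 was 0.20. Between PTX and PBS these medians were 0.03 and 0.01. For 18S ribosomal RNA the control probe set at the 3′ end over that at the 5′ end gave 0.26 (PBS), 1.95 (LPS) and 0.20 (PTX), and for beta-actin 1.33, 1.39 and 1.40. All 16 listed dendritic cell markers were measured, with a summed intensity of 47832 (PBS), 73980 (LPS) and 54002 (PTX). In each of LPS and PTX 12 of the 16 lay above PBS and 4 below, Itgax (CD11c) among the latter at 2383, 1691 and 1294. The parts of these array differences in the results were not tested.

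Read through their brightest probe sets, most ribosomal protein genes were among the brightest genes of all 3 arrays. Each gene is read through its probe set with the highest mean over the arrays, and a gene counts as measured when that probe set reached an intensity of 78.9 (the median of all noncontrol values) on at least 1 array. This held for 42 of the 43 genes. The exception was Rps16, whose only probe set read 12 (PBS), 7.78 (LPS) and 12.3 (PTX). The median percentile of the 42 genes among the 12299 measured genes of the same array was 99.6 in PBS, 99.1 in LPS and 99.2 in PTX. It was 71.9, 52.9 and 63.4 over the 19 genes left without probe sets that can match several transcripts, ranked among the 10696 measured genes then left. Some of these 19, such as Rps10 and Rps24, were then read through a dimmer probe set, which enters the lower percentiles. The 42 genes took 3.55%, 3.57% and 3.17% of the summed intensity of all measured genes, while making up 0.342% of them.

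**Figure D1:**
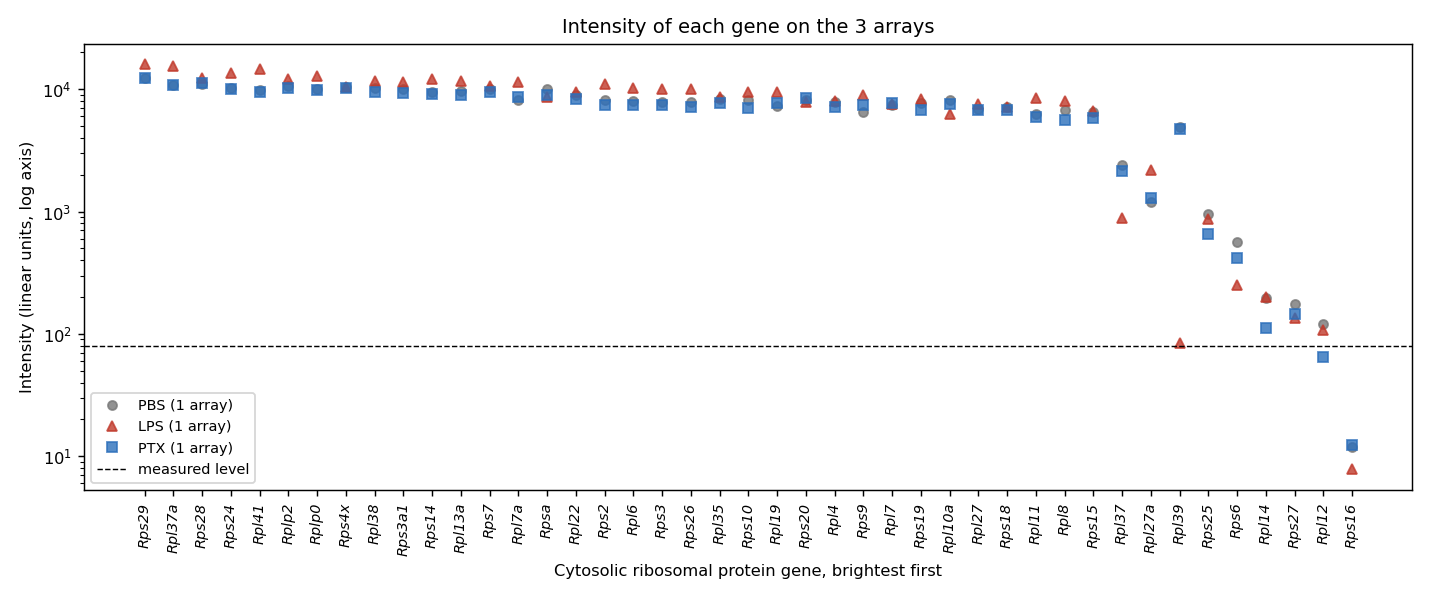
Intensity (linear units, log axis) of the 43 cytosolic ribosomal protein genes on the PBS, LPS and PTX arrays, 1 point per gene and array, ordered by mean log2 value; the dashed line is the level for a measured gene. The 34 genes on the left read 5594 or more on all 3 arrays, 8 are dimmer, Rpl39 is low on the LPS array alone, and Rps16 is under the line.

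The genes fell into a bright set and a dim set with no member between. In 34 genes the mean of log2(intensity + 16) over the arrays was 12.63 or more, and in the 8 other measured genes it was 10.72 or less. The bright 34 read between 6322 and 12390 on the PBS array (median 8237), between 6330 and 16016 on the LPS array (median 10072) and between 5594 and 12275 on the PTX array (median 8064). The 8 dim genes were Rpl37, Rpl27a, Rpl39, Rps25, Rps6, Rpl14, Rps27 and Rpl12. Rpl39 was among them through its LPS value (6.64 on the log2 scale), as its values of 12.27 in PBS and 12.21 in PTX lie between the sets. The bright set rests mostly on probe sets with a suffix. Of its 34 probe sets 29 carried the suffix _a (15), _s (2) or _x (12), and 5 did not (Rpl19, Rpl27, Rplp0, Rps15 and Rpsa). Affymetrix gives these suffixes to probe sets that can match several transcripts, which need not belong to different genes. Of the dim genes with Rps16, 9 in all, 8 were read through a probe set without such a suffix, and all 9 were also named on probe sets with several symbols, which the rule leaves out. The same was true of 6 of the 34 bright genes. A low reading of a dim gene therefore describes its probe set and gives no level of its transcript relative to another gene.

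Ribosomal protein genes were less prominent among the very brightest genes of the LPS array. Of the 50 brightest measured genes 19 were members in PBS, 6 in LPS and 11 in PTX. Of the 100 brightest the counts were 33, 20 and 23, and of the 200 brightest 35, 32 and 34. These ranks need no scaling between arrays. The brightest member on every array was Rps29, a zinc-binding protein of the 40S head, which read 12390 (PBS), 16016 (LPS) and 12275 (PTX). Next by mean were Rpl37a (10797, 15480 and 10926), Rps28 (10983, 12392 and 11178), Rps24 (10246, 13515 and 9999) and Rpl41 (9877, 14663 and 9550), all small proteins. As deposited, the LPS array was the highest in all 5, and Rps28 varied least. With quantile normalization the LPS differences from PBS were -0.13 (Rps29), -0.30 (Rps28) and -0.10 (Rps24), and 0.02 (Rpl37a) and 0.09 (Rpl41). Over 5 scalings, the deposited one included, the sign of LPS against PBS differed in 32 of the 42 genes.

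LPS against PBS and PTX against PBS ask whether either stimulus moved this family, and they share the PBS array. With the intensities as deposited, the median difference in LPS against PBS over the 42 genes was 0.17 on the log2(intensity + 16) scale (quartiles 0.01 and 0.36), with 32 genes above 0. The median turned to -0.20 with quantile normalization and to -0.13 over the 19 genes left without probe sets that can match several transcripts. Some of the 19 were then read through a dimmer probe set. Of these 19, the 6 with a mean log2 value of at least 12 had a median of 0.09, with 4 above 0. Over all 12299 measured genes the median was -0.08, with 5416 above 0. None of the 42 genes was at least 2-fold higher, against 6.5% of all measured genes, and 3 (7.14%) were at least 2-fold lower, against 13%. In PTX against PBS the median was -0.10 (quartiles -0.15 and -0.02), with 34 genes below 0. Over all 12299 measured genes it was 0.01, with 6060 below 0. No member passed 2-fold in PTX in either direction, where 3.04% of all measured genes were higher and 2.37% lower. In the direct comparison of PTX with LPS the median was -0.30, or 0.05 with quantile normalization. There 2 members were at least 2-fold higher (13.7% of all genes) and none lower (6.24%). In all, 39 of the 42 genes stayed within 2-fold in each of the 3 comparisons. Of all 12299 measured genes 9899 were within it in LPS against PBS, 11633 in PTX against PBS and 9851 in PTX against LPS. The number within it in all 3 was not computed over all genes.

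**Figure D2:**
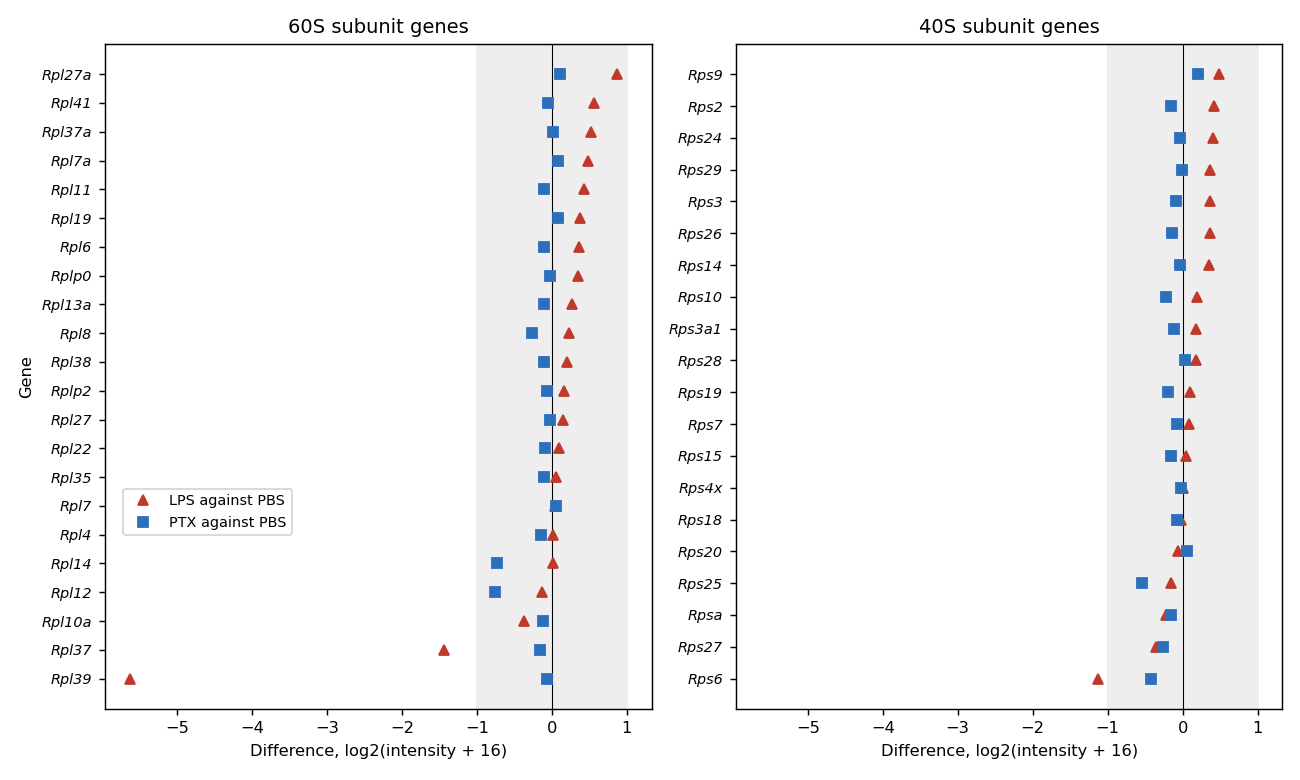
Difference of each measured gene from the PBS array, on the log2(intensity + 16) scale, for LPS (triangles) and PTX (squares), in 22 genes of the 60S and 20 of the 40S subunit; grey marks differences under 2-fold. Only Rpl39 (-5.63), Rpl37 (-1.44) and Rps6 (-1.12) leave the grey band, all in LPS, and with quantile normalization the median of the LPS points turns from 0.17 to -0.20.

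Genes of like brightness were taken as a further background, since other bright genes also read higher on the LPS array as deposited. This class was set after the values were seen, and its cut on the mean of all 3 arrays uses the values compared. Rpl39, bright in PBS and PTX, is outside it through its LPS value. The 286 other measured genes with a mean log2 value of at least 12 were centred on 0.42 in LPS against PBS, and the bright 34 ribosomal protein genes on 0.20, which is 0.22 lower. In PTX against PBS the medians were 0.10 and -0.08, a gap of 0.19. Scaling a whole array moves both classes nearly alike, and with a common 2% trimmed mean the gaps were -0.21 in LPS and -0.19 in PTX. Quantile normalization moved them more, to -0.25 in LPS and -0.16 in PTX. Between PTX and LPS the gap was -0.02, and 0.03 with quantile normalization. With the class cut instead on the array outside the comparison, also chosen after the values were seen, the gap was -0.21 in LPS against PBS (35 members, Rpl39 among them, and 303 other genes) and -0.16 in PTX against PBS (34 and 401). With quantile normalization these gaps were -0.23 and -0.15. Without replicates, none of these gaps can be set against a spread between cultures.

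**Figure D3:**
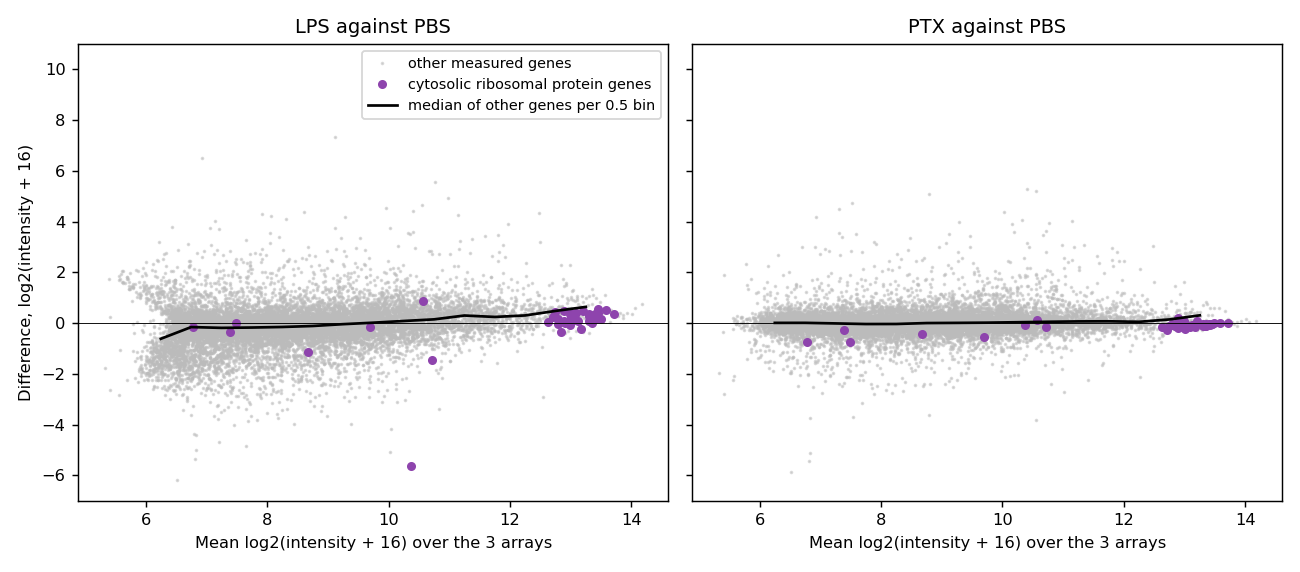
Difference from PBS against the mean log2(intensity + 16) over the 3 arrays, for LPS and PTX, with 1 point per measured gene as deposited; purple points are the 42 ribosomal protein genes and the black line is the median of the other genes in bins of 0.5. At a mean of 12 or more the ribosomal protein genes lie mostly under the line on both plots.

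**Figure D4:**
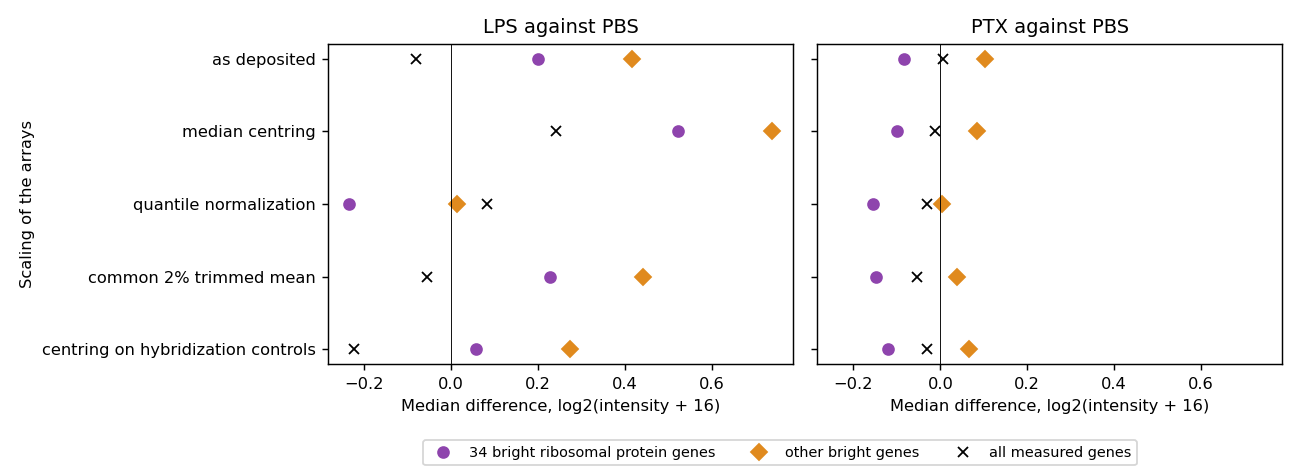
Median difference from PBS, on the log2(intensity + 16) scale, under 5 scalings of the arrays, for the 34 bright ribosomal protein genes (circles), other genes of a mean log2 value of at least 12 (diamonds) and all measured genes (crosses). In LPS the circles are at 0.20 as deposited and -0.23 with quantile normalization. Scalings of whole arrays move all 3 symbols nearly together and leave the gap from circle to diamond almost unchanged. Quantile normalization moves that gap more.

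The medians of the subunits lay close together as deposited. In LPS against PBS the median was 0.19 over 22 genes of the 60S subunit, with 18 above 0, and 0.14 over 20 measured genes of the 40S subunit, with 14 above 0. In PTX against PBS both medians were -0.10, with 5 and 3 genes above 0. Over the bright genes alone, 17 in each subunit, the LPS medians were 0.24 and 0.18 and the PTX medians -0.09 and -0.08.

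The stalk proteins recruit elongation factors to the 60S subunit. Rplp0, which anchors the stalk, read 10058 (PBS), 12780 (LPS) and 9896 (PTX), so that LPS lay 0.34 above PBS and PTX 0.02 below. Rplp2, which pairs with Rplp1 on that anchor, read 10726, 12056 and 10222. Rpl12 forms the stalk base and was read through a dim probe set (120, 108 and 64.4), which gave the largest negative difference of the family in PTX (-0.75) and was under the measured level there. The LPS sign of Rplp0 is subject to the scaling.

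Rpl11 binds Rpl5 and 5S ribosomal RNA and, when free of the ribosome, the p53 regulator Mdm2. It read 6322, 8533 and 5891. Of 4 measured proteins that line or surround the tunnel by which the new peptide leaves, Rpl39 is described with the genes past 2-fold (-5.63 in LPS). Of the others, Rpl4 read 7918, 8019 and 7188, Rpl19 read 7330, 9541 and 7756, and Rpl35 read 8332, 8650 and 7743. These 3 were within 0.38 of PBS in both comparisons. On the 40S subunit, Rps2 and Rps3 sit at the channel by which messenger RNA enters. Rps2 read 8241, 10973 and 7368, and Rps3 read 7850, 10081 and 7387, which made LPS the highest and PTX the lowest array for each as deposited. With quantile normalization their LPS differences from PBS were -0.02 and -0.07. Rps15, of the 40S head near the decoding site, read 6481, 6657 and 5841. Fau, whose ribosomal part is a 40S protein made as a fusion with a ubiquitin-like protein, lies outside the symbol rule and read 10806, 14203 and 10418.

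Several members are known for roles beyond the ribosome's core. Rpl13a, which in interferon-treated human monocytic cells leaves the ribosome to silence inflammatory messenger RNAs, read 9693 (PBS), 11721 (LPS) and 9040 (PTX). Its differences were 0.27 and -0.10, close to the medians of the family. Other probe sets of Rpl13a lay at 0.345, 0.64 and -0.19 in LPS. With quantile normalization its LPS difference was -0.13, so its LPS sign depended on the probe set and the scaling. Rpsa, a 40S protein also known as a laminin receptor, read 10025, 8618 and 9028 and was lower than PBS on both other arrays (-0.22 in LPS and -0.15 in PTX). Rpl10a read 8175, 6330 and 7567, the largest negative LPS difference of the bright set (-0.37).

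The genes past 2-fold were Rpl39, Rpl37 and Rps6, all lower in LPS and all in the dim set, Rpl39 through its LPS value alone. Rps6 fell short of 2-fold with median centring (-0.80), with quantile normalization (-0.90) and, narrowly, with a pseudocount of 64. Rpl39, a short protein of the exit tunnel, had 1 probe set in the rule, which read 4933 (PBS), 83.9 (LPS) and 4709 (PTX). Its difference of -5.63 was the next to lowest of all 12299 measured genes in LPS against PBS, while in PTX it was -0.07. Its percentile on the LPS array was 16.4, against 98.4 in PBS and 97.8 in PTX. Rpl37, a zinc-binding 60S protein, also had 1 probe set, which read 2420, 881 and 2160 (-1.44 in LPS, -0.16 in PTX). Rps6, the 40S protein that S6 kinases phosphorylate downstream of mTORC1, was read through a probe set at 567, 251 and 417 (-1.12 and -0.43), and its other probe set was not measured. The annotation names Rps6 on 9 further probe sets, Rpl37 on 3 and Rpl39 on 1, each together with other symbols, and no value of those is given for a named gene.

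A probe set of Rpl41 went the opposite way. Rpl41, the shortest ribosomal protein, had 4 probe sets, of which the 2 brightest read 9877 (PBS), 14663 (LPS) and 9550 (PTX), and 9140, 11362 and 8830. A further probe set read 195 (PBS), 8126 (LPS) and 166 (PTX), low in both others and high in LPS. Its LPS difference of 5.27 was the fifth highest of 21805 measured probe sets with 1 symbol, next to 0.57 and 0.31 in the brighter ones and -0.92 in the last (212, 105 and 158). For 1 gene the LPS array thus gave differences from -0.92 to 5.27.

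Probe sets of 1 gene agreed better in PTX than in LPS. Over 18 members with at least 2 measured probe sets, the median range of differences within a gene was 0.51 in LPS against PBS and 0.10 in PTX against PBS. It was above 1 in 3 genes in LPS (Rpl41, Rps24 and Rps10) and in none in PTX. Among 16 genes with at least 2 probe sets at a mean log2 value of 12 or more, the median range was 0.29 in LPS and 0.07 in PTX, and in 8 and 3 of them the probe sets had opposite signs.

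In the genes with wide ranges the odd value came from a dim probe set. Rps24, a 40S protein, had 4 bright probe sets that read between 6070 and 10246 (PBS) and between 8210 and 13515 (LPS), all higher in LPS, and a dim one at 197 (PBS), 66.7 (LPS) and 117 (PTX), with a difference of -1.37 in LPS. Rps10, of the 40S head, had 5 bright probe sets, of which 2 read higher in LPS (such as 8231 in PBS and 9435 in LPS) and 3 lower (such as 7011 and 5307). Its dim probe set read 83.8, 38.4 and 84.8. The sign of Rps10 in LPS thus depended on the probe set, also among bright ones.

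Larger positive LPS differences stayed under 2-fold. Rpl27a, a 60S protein, read 1192, 2188 and 1289, the highest LPS difference of the family (0.87). It was followed by Rpl41 (0.57), Rpl37a (0.52), Rps9 (0.48) and Rpl7a (0.48). Other bright probe sets of Rpl37a lay at 0.19 and -0.22 in LPS, and another bright probe set of Rps9 at -0.03. Rps9, a 40S protein that helps guard decoding accuracy, read 6458 (PBS), 9022 (LPS) and 7417 (PTX) and had the highest PTX difference of the family (0.20), ahead of Rpl27a (0.11), Rpl19 (0.08), Rpl7a (0.08) and Rps20 (0.06). A dimmer probe set of Rps9 read 187, 321 and 410, the only measured member probe set at least 2-fold higher in PTX (1.07). Over probe sets, 1 of 83 measured was at least 2-fold higher in LPS against PBS (6.23% of all measured probe sets with 1 symbol) and 4 were lower (16.3%). In PTX against PBS 1 was higher (2.76%) and none lower (2.19%). In PTX against LPS 2 were higher (17.3%) and 1 lower (6.22%).

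The largest negative PTX differences came from dim probe sets. After Rpl12 followed Rpl14 (197 in PBS, 198 in LPS and 112 in PTX, -0.73), Rps25 (961, 864 and 657, -0.54), Rps6 (-0.43) and Rpl8 (6749, 7951 and 5594, -0.27). Rps25 is a 40S protein needed by some viral RNAs that recruit ribosomes internally, and Rpl8 lies near the peptidyl transferase centre. Rpl8 was the lowest of the bright set in PTX. In PTX against LPS the lowest were Rpl27a (-0.76), Rpl14 (-0.74), Rpl41 (-0.62), Rpl12 (-0.62) and Rps2 (-0.57), and the highest after Rpl39 (5.56) and Rpl37 (1.28) were Rps6 (0.70), Rpl10a (0.26) and Rps20 (0.11).

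Differences were also set beside the TOP tract. The 8 genes with a C and at least 4 C or T letters at the annotated start had a median of 0.03 in LPS and -0.16 in PTX, against 0.18 and -0.09 in the 29 measured genes whose windows lacked it. By the longer run around the start the medians were 0.17 (21 genes) and 0.16 (16 genes) in LPS and -0.10 and -0.10 in PTX. These medians are given as deposited, and the LPS signs depend on the scaling.

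The genes that serve the ribosome were compared from lists of factors. Elongation factors deliver transfer RNA and move the ribosome along. Of 6 measured, none passed 2-fold in either stimulus, with a median of 0.48 in LPS and -0.18 in PTX. Of all 12299 measured genes 9899 were within 2-fold in LPS and 11633 in PTX. Eef1a1, which carries transfer RNA, read 11920 (PBS), 15880 (LPS) and 11955 (PTX). Eif5a, which helps the ribosome past hard peptide bonds, read 6238, 9070 and 4425. Eef1e1, an elongation factor by its symbol alone, read 894, 1504 and 455. In PTX against LPS these 2 were at least 2-fold lower (-1.03 and -1.69), against 6.24% of all genes, and none of the 6 was higher. Of 28 initiation factors 2 were at least 2-fold higher in LPS, none was lower, and none passed 2-fold in PTX (medians 0.04 and -0.08), a share in LPS near the 6.5% of all genes. These were Eif4e, the cap-binding protein, at 991, 2728 and 731 (1.45 in LPS and -0.43 in PTX), and Eif6, which keeps free 60S subunits apart from 40S, at 1240, 2691 and 948 (1.11 and -0.38). In both, LPS lay above PBS and PTX below it. In PTX against LPS they and Eif2b3 (-1.39) were at least 2-fold lower, where 6.24% of all genes were.

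Other transcripts known for a TOP tract were mostly within 2-fold, as were most measured genes. Of 12 measured, 11 were within it in LPS and all 12 in PTX, against 9899 and 11633 of all 12299 measured genes. Their LPS median was 0.21, and in PTX 6 were above and 6 below 0, where 34 of the 42 ribosomal protein genes were below. Tpt1 read 13813, 17112 and 14138. Of 4 noncoding hosts of small nucleolar RNAs, 3 read lower in LPS, namely Snhg8 at 1119, 497 and 790 (-1.15), Snhg12 at 606, 301 and 525 (-0.97) and Gas5 at 2430, 1478 and 2246 (-0.71), and Snhg1 read 1032, 1130 and 1110 (0.13). Naca, which guards new peptides at the tunnel exit, read 5032, 8669 and 4254 (0.78). In PTX against LPS Naca alone of the 12 was at least 2-fold lower (-1.02), against 6.24% of all genes. None of the 12 was higher there, against 13.7%.

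Ribosome biogenesis genes had the lowest PTX median of the lists for the ribosome. These genes cut, modify and assemble ribosomal RNA in the nucleolus. Of 40 measured, 36 were below 0 in PTX, with a median of -0.35, and 2 were at least 2-fold lower (Nop58 -1.34 and Dkc1 -1.37), against 2.37% of all genes. In LPS 29 were below 0 with a median of -0.16, 6 were at least 2-fold lower, a share near the 13% of all genes, and none higher, against 6.5%. Of all 12299 measured genes 6060 were below 0 in PTX and 6882 in LPS. In PTX against LPS 3 were at least 2-fold higher (Riok1, Riok2 and Ddx21) and 3 lower, namely Fbl (-1.01), Rrs1 (-1.10) and Ebna1bp2 (-1.22). Of all genes 13.7% were higher and 6.24% lower there. Nop58, a core protein of box C/D small nucleolar particles, read 855 (PBS), 164 (LPS) and 328 (PTX), and Dkc1, the pseudouridine synthase dyskerin, read 414, 225 and 150. Riok1 and Riok2, kinases of late 40S assembly, were lower in LPS (-2.14 and -2.03). In PTX Riok1 was near PBS (-0.04) and Riok2 lay close to the list median (-0.36). Ddx21, a nucleolar helicase, read 678, 186 and 622 (-1.78 in LPS).

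Of 17 measured genes of RNA polymerase I and its factors, which transcribe ribosomal RNA, 16 were within 2-fold in LPS (median 0.04) and all in PTX (median -0.09). Ubtf, the factor that opens ribosomal DNA, was the exception at 1131, 294 and 682 (-1.89 in LPS and -0.72 in PTX). Of all 12299 measured genes 9899 were within 2-fold in LPS and 11633 in PTX. In PTX against LPS Ubtf was higher (1.17) and Rrn3, which recruits the polymerase, lower (-1.04), where 13.7% of all genes were higher and 6.24% lower. Of 16 regulators of mTORC1, S6 kinase and 4E-BP, 2 were at least 2-fold lower in LPS (Deptor -1.59 and Mlst8 -1.47, both bound to mTOR), a share near the 13% of all genes. In PTX 2.37% of all genes were at least 2-fold lower, and 1 of the 16. The latter was Myc, the transcription factor that drives ribosome biogenesis genes, which read 226 (PBS), 189 (LPS) and 42.8 (PTX), a difference of -2.04 in PTX, where it was under the measured level, and -0.24 in LPS. In PTX against LPS Deptor (1.99) and Mlst8 (1.23) were at least 2-fold higher, as were 13.7% of all genes. Myc (-1.80) was lower there, as were 6.24%.

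**Figure D5:**
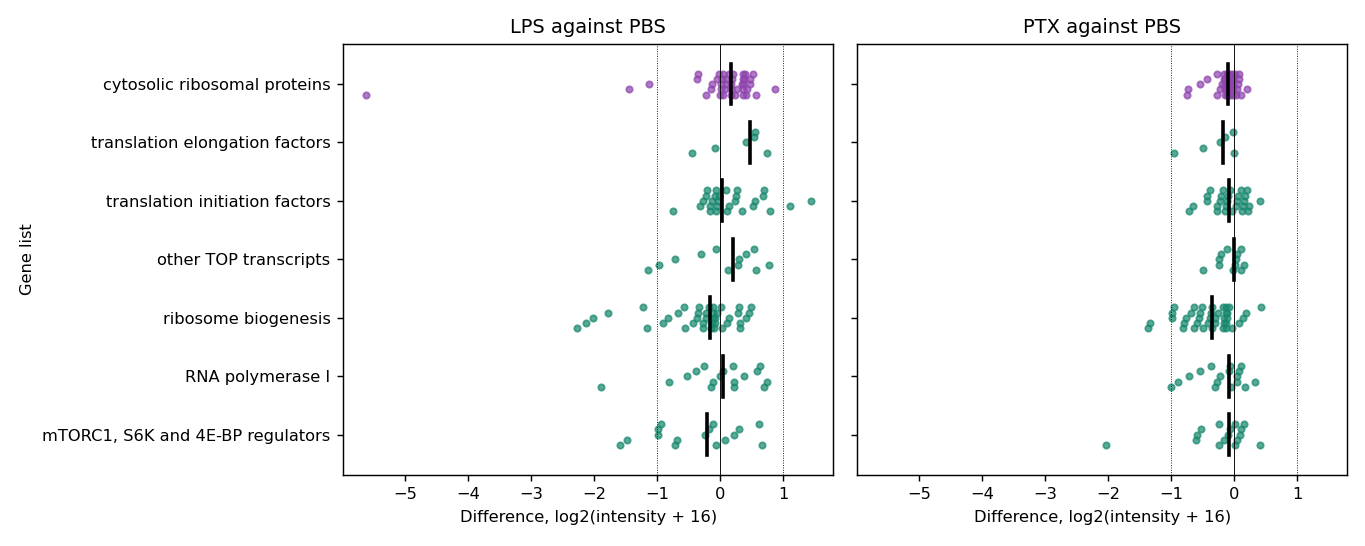
Differences from PBS on the log2(intensity + 16) scale, as deposited, for the 42 cytosolic ribosomal protein genes (purple) and the measured genes of 6 lists (green), 1 point per gene, with the median as a black bar and 2-fold as dotted lines. In PTX the ribosome biogenesis list has the lowest median (-0.35), and in LPS the ribosomal proteins sit close together apart from Rpl39, Rpl37 and Rps6.

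Mitochondrial ribosomal protein genes, the counterpart family for the ribosomes inside mitochondria, had 76 measured members here. As deposited, their median was 0.35 in LPS and -0.14 in PTX, against 0.17 and -0.10 for the cytosolic genes. Of the 76 genes 7 were at least 2-fold higher and 2 lower in LPS, and none higher and 2 lower in PTX. Over all genes the shares were 6.5% and 13% in LPS and 3.04% and 2.37% in PTX. Of paralogs outside the rule 5 were measured, and 1 passed 2-fold in LPS against PBS: Rpl39l, a germ-line paralog of Rpl39, read 71.7, 180 and 77.2 (1.16 in LPS). Its PBS and PTX values were under the measured level. Rpl39l (-1.07) and Rps4l (-1.08) were at least 2-fold lower in PTX than in LPS, as were 6.24% of all genes. Rpl22l1, the paralog that Rpl22 represses, read 2182, 1253 and 1640 (-0.79 and -0.41), and the brightest probe set of Rpl22 read 8919, 9493 and 8372. Other measured probe sets of Rpl22 lay at -0.34 and -0.44 in LPS, so its LPS sign depended on the probe set.

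Markers of other cells that the cultures could hold also differed between arrays. The summed intensity of 9 measured macrophage markers was 21521 in PBS, 40299 in LPS and 36445 in PTX, that of 7 neutrophil markers 10842, 12202 and 6849, and that of 3 mast cell and eosinophil markers 268, 1937 and 198. Members of a list went opposite ways: in LPS the macrophage marker Marco differed by 4.52 and C1qa, C1qb and C1qc by -0.65, -0.63 and -0.72, and in PTX the neutrophil marker Csf3r differed by 2.07 and S100a8 by -0.60. Of 6 T cell markers on the array 4 were measured, with a sum of 598, 341 and 575. Of B cell, NK cell and stromal markers 1 each was measured, and of erythroid and megakaryocyte markers 2. In such bulk samples fewer cells of a type and less RNA per cell cannot be told apart, and the part of these markers in the ribosomal protein values was not tested.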

How the data were processed

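RNA of 3 cultures was read on 3 arrays, 1 per group. The deposited values are one intensity per probe set on a linear scale, per the file's columns and values. For the summarization program, the background correction and the scaling between arrays, nothing is given in the sources used here. Genes were named from GEO's platform annotation, by which 34945 probe sets had 1 symbol, 932 several and 9160 none, beside 64 controls, and only those with 1 symbol were used. Values were taken as log2(intensity + 16), which understates differences of dim genes. A gene was read through its probe set with the highest mean, and was called higher or lower at a 2-fold difference, without a test, SD or p-value, because each group held 1 array. The number of arrays limits the precision. Named members were, in each comparison, the 5 highest and the 5 lowest by difference, all past 2-fold, the 5 brightest and 5 dimmest, those in role lists, Rps6, Rpl13a and Rpsa, and those whose probe sets differed by over 1. Of the lists on translation, ribosome assembly and its regulators, up to 4 genes with the largest difference were named, and all past 2-fold where they numbered 5 or fewer in a direction. Eef1a1, Tpt1, Gas5, Snhg1, Rpl22, Rpl22l1 and the cell type markers were named after their values were seen. The member rule and all lists were chosen with earlier results of these data known. The alternatives were other pseudocounts, filters, scalings and ways to choose probe sets. The code was tested on simulated data. Python 3.11.15, pandas 2.3.3, numpy 2.4.6, scipy 1.17.1 and matplotlib 3.10.9 were used.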

Additional observations from a re-analysis of the deposited data

How the results depend on the processing

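No paired analysis was possible because each group held 1 array, and for the same reason no array could be left out. The PTX against PBS median kept its sign under every alternative tried, 11 planned and 2 chosen after seeing the data. It was -0.10 as deposited and ranged from -0.17 with quantile normalization to -0.08 over the bright genes alone. The LPS against PBS median (0.17) became -0.20 with quantile normalization, -0.13 without probe sets that can match several transcripts, 0.028 with centring on hybridization controls and 0.49 with median centring. The PTX against LPS median (-0.30) became 0.052, 0.067, -0.19 and -0.64 under the same settings in that order, and -0.18 with each probe set on its own. For LPS against PBS the median was 0.089 with the mean over measured probe sets and 0.090 with each probe set on its own. The cause was not tested. Without probe sets that can match several transcripts, 19 genes were left, some of them read through a dimmer probe set than before. Their median percentiles among the 10696 measured genes then left were 71.9 (PBS), 52.9 (LPS) and 63.4 (PTX). Counts of genes past 2-fold moved as follows. In LPS against PBS, 1 was higher with median centring, with the mean over probe sets and with each probe set on its own, 2 in place of 3 were lower with a pseudocount of 64, median centring and quantile normalization (Rps6 falling short), 4 with each probe set on its own, and 0 in the alternatives chosen after seeing the data (bright genes only, and without Rpl39, Rpl37 and Rps6), which leave out the genes that passed. In PTX against PBS, 1 was higher with each probe set on its own and without probe sets that can match several transcripts. In PTX against LPS, 1 was higher with median centring and without such probe sets, and 0 in both alternatives chosen after seeing the data. There 1 was lower with quantile normalization, with the mean over probe sets and with each probe set on its own, and 2 with median centring. Over all measured genes the LPS against PBS median was -0.08 as deposited, 0.24 with median centring, 0.08 with quantile normalization and -0.22 with centring on hybridization controls, and the share of higher among called genes was 33.3%, 56.6%, 43.6% and 24.7%. For PTX against LPS those shares were 68.7%, 41.8%, 55.0% and 75.8%.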

Other observations

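Ribosomal protein symbols also stand on 110 probe sets that the annotation gives to several genes, many of them pseudogenes or near copies, which cannot be credited to 1 gene. Of these, 101 were measured. In PTX against PBS their median difference was -0.10, with 92 below 0 and all 101 within 2-fold, against -0.10 over the 42 member genes. Of all 21805 measured probe sets with 1 symbol 10745 were below 0 there, 2.76% were at least 2-fold higher and 2.19% lower. In LPS against PBS the median of the 101 was 0.02 as deposited, with 53 above 0 and 3 at least 2-fold lower. Of the 21805 probe sets 8989 were above 0 there and 16.3% at least 2-fold lower. Among the 80 probe sets with several symbols and a mean log2 value of at least 12 the medians were 0.10 in LPS and -0.09 in PTX.

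By kind of probe set, the 36 measured member probe sets with the suffix _x had a median of 0.17 in LPS and -0.04 in PTX, the 25 with _a 0.18 and -0.12, and the 19 without such a suffix -0.13 and -0.15, all as deposited. The single measured B cell marker, Vpreb3, read 788 (PBS), 39.9 (LPS) and 181 (PTX).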
